A study of Mus musculus with 15 samples.

Results

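The 10 genes described here belong to the heat-making program of brown and beige fat: Ucp1, Prdm16, Ppargc1a, Cidea, Dio2, Elovl3, Ebf2, Zic1, Pank1 and Gk. They were taken by symbol from a table of 34714 genes, in which all 10 were found, and 9 of them were among the 12603 genes that could be tested. The table comes from RNA sequencing of mouse aorta in 3 groups of 5 libraries, all from wild-type (WT) animals with no age or strain given. Sham animals were the controls. AngII animals were infused with angiotensin II, a peptide hormone that narrows blood vessels, at 750 ng per kg per minute to induce hypertension. AngII + RvE1 animals had the same infusion together with resolvin E1 (RvE1), a lipid mediator that takes part in ending inflammation, injected intraperitoneally at 2 µg per kg per day. The labels number the libraries 1 to 5 within each group and do not say that each came from a separate animal, so the p-values measure the spread between these libraries, which may be technical.

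Brown and beige fat cells hold many mitochondria and burn fatty acids to make heat. Their defining protein, uncoupling protein 1, lets protons leak across the inner mitochondrial membrane, so that respiration runs without making ATP. Cold and sympathetic nerves drive the program through beta-adrenergic receptors and cyclic AMP, and the mouse aorta is wrapped in a fat layer that resembles brown fat around its thoracic stretch.

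Expression values have decimals, and the deposited file names no unit. They were treated as FPKM, fragments scaled to transcript length and to library size, which is an assumption. The number of reads behind each value is unknown, and counting errors are therefore not given. Tests were run with limma on log2(FPKM + 1), a scale on which differences of genes with low values are understated, and p-values were adjusted by Benjamini-Hochberg over all 12603 genes tested. A gene is called changed where the adjusted p is under 0.05. The 3 comparisons share libraries, so their values are given side by side and are not independent of each other.

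The aorta's own contractile smooth muscle markers were present in every library, with Acta2 between 485 and 6288 FPKM. Adipocyte markers were also high throughout, with Fabp4 between 5458 and 16340 FPKM and Adipoq between 324 and 882 FPKM. AngII libraries 3, 4 and 5 stood apart from the other 12 by their lymphocyte markers, whose summed level was 881, 302 and 1358 FPKM there and between 4.25 and 72.9 FPKM elsewhere. The differences of the 9 tested genes between AngII and another group are given with and without these 3 libraries. Bulk RNA cannot tell fewer cells of a type apart from less RNA per cell, which holds for every gene that follows.

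Promoter windows of 250 bases before a RefSeq transcription start (GRCm38.p6, the same assembly as the authors' mm10) were found for 7 of the 10 genes. The 4 windows below show how the sequence before a listed start can differ between genes of 1 program. They belong to Ucp1, the defining gene, at chr8:83290098-83290347 on the plus strand; to Dio2, a gene known to respond to cyclic AMP, at chr12:90739039-90739288 on the minus strand; to Prdm16, the 1 gene that changed, at chr4:154636874-154637123 on the minus strand; and to Pank1, which followed Ucp1 most closely beside Cidea, at chr19:34879456-34879705 on the minus strand. The Ucp1 and Dio2 windows border the RefSeq spans of their genes. Those of Prdm16 and Pank1 lie inside the spans, which reach chr4:154637360 and chr19:34883423, and so precede internal starts. Each window is printed 5′ to 3′ on the gene's strand, ending at the base before the start (1 of 2 starts listed for Pank1), with motif matches in capitals.
Ucp1: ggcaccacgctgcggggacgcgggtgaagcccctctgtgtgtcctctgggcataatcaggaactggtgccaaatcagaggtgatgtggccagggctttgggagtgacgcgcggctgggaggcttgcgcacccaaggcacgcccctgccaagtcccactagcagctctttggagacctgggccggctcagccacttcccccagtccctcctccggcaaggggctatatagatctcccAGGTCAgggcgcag
Dio2: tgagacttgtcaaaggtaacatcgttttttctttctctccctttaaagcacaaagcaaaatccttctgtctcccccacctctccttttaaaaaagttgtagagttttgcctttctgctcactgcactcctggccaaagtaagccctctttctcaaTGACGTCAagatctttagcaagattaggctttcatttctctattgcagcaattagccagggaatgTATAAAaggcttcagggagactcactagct
Prdm16: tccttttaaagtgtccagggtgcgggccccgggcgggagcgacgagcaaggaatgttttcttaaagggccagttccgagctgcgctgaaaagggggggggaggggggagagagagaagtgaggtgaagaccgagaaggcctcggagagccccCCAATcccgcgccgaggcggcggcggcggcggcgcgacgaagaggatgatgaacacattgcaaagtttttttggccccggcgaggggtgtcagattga
Pank1: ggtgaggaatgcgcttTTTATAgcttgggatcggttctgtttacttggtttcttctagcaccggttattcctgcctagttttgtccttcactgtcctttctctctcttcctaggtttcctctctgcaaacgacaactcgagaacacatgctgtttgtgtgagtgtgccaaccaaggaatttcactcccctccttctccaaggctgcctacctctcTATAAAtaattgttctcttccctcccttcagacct

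The motifs searched on both strands were AGGTCA, the 6-base site of nuclear receptors, found in 14.02% of 32851 windows of the same length; TGACGTCA, the cyclic AMP response element (1.55%); TCAAGGTCA, bound by estrogen-related receptors (0.387%); AGGTCA repeated with 1 base of any kind between, the direct repeat of PPAR receptors (0.0335%); TCCC and GGGA with 2 bases of any kind between, the EBF motif (0.779%); TATAAA (12.4%); and CCAAT (33.9%). TCAAGGTCA and the direct repeat both contain AGGTCA. The Ucp1 window held AGGTCA with its first base 14 bases before the start and no exact TATAAA. The letters TATATA, which were not among the motifs searched, stand shortly before that AGGTCA. In Dio2 a full TGACGTCA lay 95 bases before the start and TATAAA 30 bases before it. Prdm16 held 1 CCAAT at 98 bases, and the Pank1 window held TATAAA at 35 bases and again, on the opposite strand, at 234 bases. G and C made up 64.8% of the Ucp1 window and 62.4% of the Prdm16 window, against 46.4% for Pank1, 41.6% for Dio2 and a median of 52.4% over all windows. CpG pairs numbered 22 in Prdm16, 12 in Ucp1, 5 in Pank1 and 2 in Dio2, against a median of 6. A match shows only that these letters are present in the window.

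Ucp1, the uncoupling protein itself, was the most abundant of the 10 genes and ranked 19th by mean level among all genes tested. In Sham libraries 1 to 5 it measured 729, 2889, 4133, 1906 and 1827 FPKM. In AngII libraries 1 to 5 it measured 3412, 2496, 192, 1134 and 1057 FPKM, and in AngII + RvE1 libraries 1 to 5 it measured 1355, 1857, 1863, 858 and 1175 FPKM. The lowest library, AngII 3, lay 21.6-fold under the highest, Sham 3, and the groups overlapped fully. Group means were 2297 ± 1280 in Sham, 1658 ± 1281 in AngII and 1422 ± 438 in AngII + RvE1 (SD, n = 5 each). The log2 difference of AngII from Sham was -0.79 (SE 0.65, limma adjusted p = 0.465), and that of AngII + RvE1 from AngII was 0.25 (SE 0.65, adjusted p = 0.834). Without AngII libraries 3, 4 and 5 both turned, to 0.56 (adjusted p = 0.887) and -1.10 (adjusted p = 0.468).

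Cidea encodes a lipid droplet protein of brown adipocytes that governs droplet fusion. Its values were 363, 1367, 1734, 954 and 694 FPKM in Sham, 1622, 1267, 223, 970.2 and 570 FPKM in AngII, and 878, 933, 1469, 564 and 815 FPKM in AngII + RvE1, each in the order of libraries 1 to 5. The same libraries were lowest as for Ucp1, namely AngII 3 and Sham 1, and the groups overlapped. Cidea ranked 49th by mean level and stood below Ucp1 in 14 of 15 libraries. In AngII 3 it stood above, at 116% of the Ucp1 level. Group means hardly separated, at 1022 ± 541, 930.5 ± 553 and 932 ± 332 FPKM (SD, n = 5 each). Its log2 differences were -0.23 for AngII against Sham (limma adjusted p = 0.806) and 0.22 for AngII + RvE1 against AngII (adjusted p = 0.811), and they became 0.68 and -0.69 without AngII libraries 3, 4 and 5, with adjusted p of 0.840 and 0.611.

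Elovl3, a fatty acid elongase induced by cold in brown fat, varied most. Sham libraries 1 to 5 held 5.23, 65.2, 86.8, 48.9 and 32.0 FPKM, AngII libraries 26.2, 23.4, 1.22, 15.5 and 17.0 FPKM, and AngII + RvE1 libraries 9.40, 34.7, 8.78, 5.40 and 8.89 FPKM. Sham libraries 2, 3 and 4 exceeded every infused library, while Sham 1 lay below all but AngII 3, so the groups overlapped. The range of 71.2-fold over the 15 libraries was the widest of the 9 tested genes. On the log2 scale AngII differed from Sham by -1.42 (SE 0.76; adjusted p = 0.246, limma) and AngII + RvE1 from Sham by -1.60 (SE 0.76, adjusted p = 0.749). Leaving out AngII libraries 3, 4 and 5 took the first value to -0.48 (adjusted p = 0.938). From AngII, AngII + RvE1 differed by -0.19 (adjusted p = 0.901), or by -1.12 with those libraries omitted (adjusted p = 0.611). With the mean of 15 adipocyte markers as a covariate the difference of AngII from Sham was -2.22 (adjusted p = 0.0378), in a fit that called 9.43% of all genes. This fit was not repeated with libraries left out. With the log2 level of Ucp1 as the covariate, fits that left out 1 library gave -0.98 to -0.26, and 0 of 15 called Elovl3.

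Pank1 encodes a pantothenate kinase, the entry step of coenzyme A synthesis. It measured 7.90, 29.6, 31.6, 23.5 and 17.9 FPKM in Sham, 41.9, 30.6, 4.90, 24.7 and 17.1 FPKM in AngII, and 21.3, 22.2, 25.5, 13.4 and 13.2 FPKM in AngII + RvE1. AngII 3 and Sham 1 were again the lowest libraries and the groups overlapped. On the log2 scale neither AngII against Sham (-0.03, SE 0.46, limma adjusted p = 0.975) nor AngII + RvE1 against AngII (-0.08, SE 0.46, adjusted p = 0.931) passed the test. Without AngII libraries 3, 4 and 5 these differences were 0.81 (adjusted p = 0.790) and -0.92 (adjusted p = 0.438).

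Gk encodes glycerol kinase, which lets brown adipocytes reuse glycerol for triglyceride synthesis. Sham libraries 1 to 5 held 12.9, 18.1, 21.5, 20.4 and 29.4 FPKM, AngII libraries 32.3, 35.6, 9.09, 14.4 and 20.5 FPKM, and AngII + RvE1 libraries 12.4, 17.6, 11.4, 8.97 and 9.52 FPKM. All AngII + RvE1 libraries but AngII + RvE1 2 lay below every Sham library and below every AngII library but AngII 3. The mean was 20.5 ± 6.01 in Sham, 22.4 ± 11.4 in AngII and 11.96 ± 3.42 FPKM in AngII + RvE1 (SD, n = 5 each). The log2 difference of AngII + RvE1 was -0.73 from AngII (SE 0.32, limma adjusted p = 0.142) and -0.72 from Sham (SE 0.32, adjusted p = 0.702), so neither was called. AngII differed from Sham by 0.01 (adjusted p = 0.984). When AngII libraries 3, 4 and 5 were omitted, AngII + RvE1 differed from AngII by -1.46 (SE 0.28, adjusted p = 0.153) and AngII from Sham by 0.75 (adjusted p = 0.587).

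Dio2 encodes the deiodinase that makes active thyroid hormone inside brown fat cells. Its Sham values were 15.9, 14.8, 38.3, 23.2 and 34.9 FPKM. Its AngII values were 48.7, 54.5, 2.99, 7.80 and 22.7 FPKM, so this group held both the highest and the lowest libraries, 18.3-fold apart. AngII + RvE1 libraries measured 11.3, 28.6, 5.32, 21.9 and 14.2 FPKM and overlapped both other groups. The log2 differences were -0.40 for AngII against Sham (SE 0.64, limma adjusted p = 0.726) and -0.30 for AngII + RvE1 against AngII (SE 0.64, adjusted p = 0.793). After omission of AngII libraries 3, 4 and 5 they were 1.09 (adjusted p = 0.755) and -1.79 (adjusted p = 0.304).

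**Figure D1:**
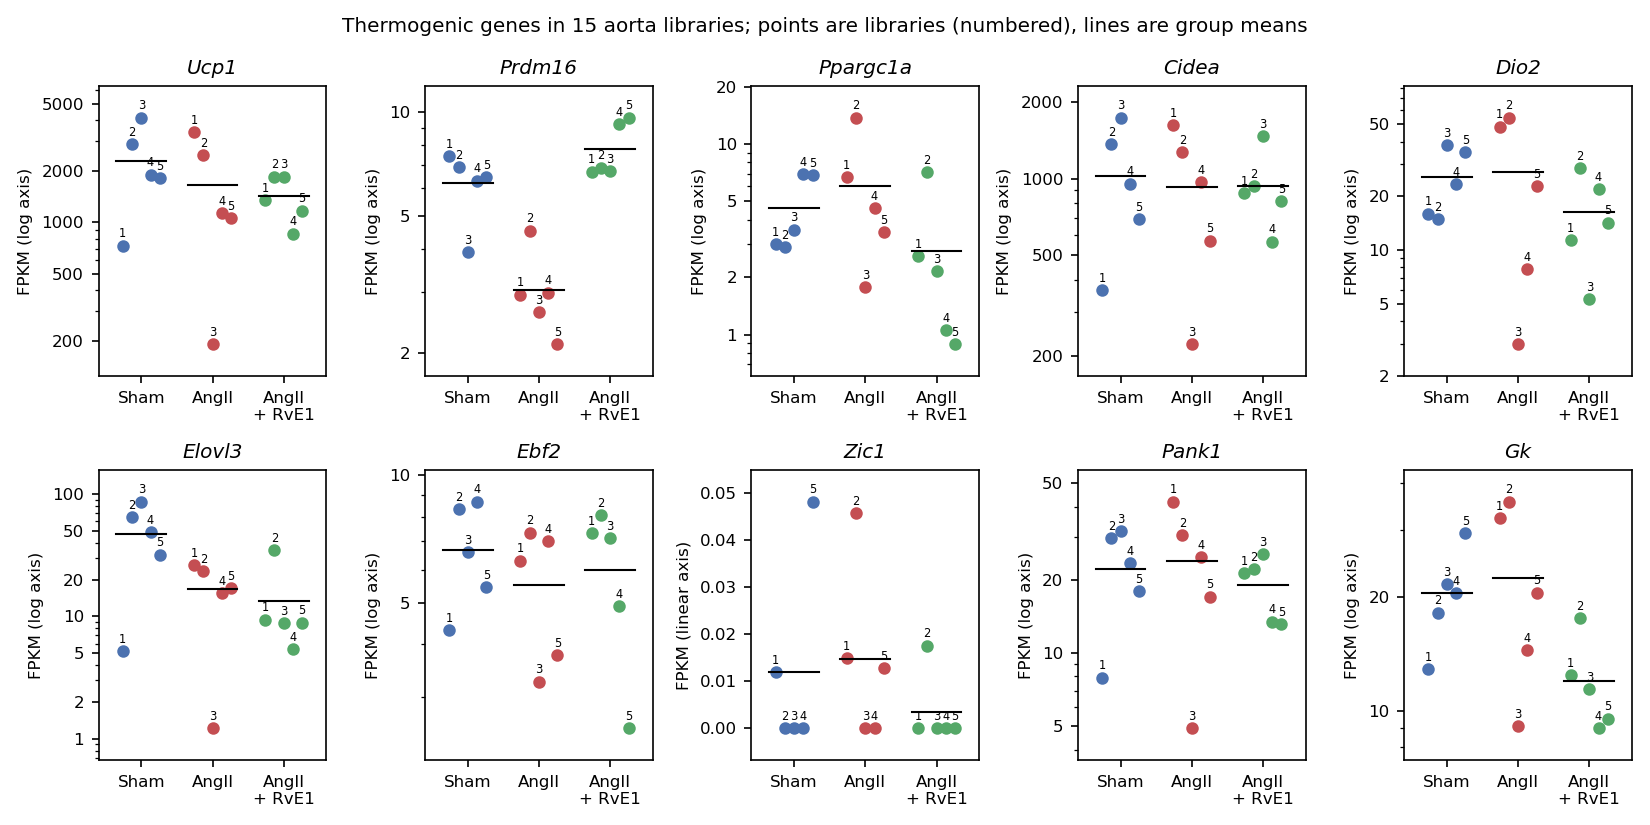
Level of each of the 10 thermogenic genes in the 15 libraries, in FPKM on a log axis (linear for Zic1). Points are libraries numbered within their group and lines are group means; AngII 3 is the lowest library for Ucp1, Cidea, Dio2, Elovl3 and Pank1, and Prdm16 is the gene whose AngII + RvE1 libraries all lie above the AngII libraries.

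Among the regulators, Ppargc1a encodes a coactivator that raises mitochondrial genes. It was low, at 2.97, 2.87, 3.55, 6.94 and 6.86 FPKM in Sham, 6.70, 13.7, 1.78, 4.62 and 3.45 FPKM in AngII, and 2.58, 7.09, 2.15, 1.06 and 0.890 FPKM in AngII + RvE1. AngII 2 was the highest library and AngII + RvE1 libraries 4 and 5 were the lowest, with overlap between all groups. AngII + RvE1 differed from AngII by a log2 value of -0.89 (SE 0.44; adjusted p = 0.192, limma), and by -1.72 without AngII libraries 3, 4 and 5 (adjusted p = 0.311). For AngII against Sham the values were 0.17 (adjusted p = 0.835) and, with those libraries omitted, 0.99 (adjusted p = 0.779).

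Ebf2 encodes a transcription factor that marks cells committed to brown fat. It stayed within 3.42-fold over all libraries, the narrowest range of the 9 tested genes. Its values were 4.31, 8.33, 6.59, 8.67 and 5.46 FPKM in Sham, 6.30, 7.33, 3.26, 6.99 and 3.77 FPKM in AngII, and 7.30, 8.05, 7.11, 4.91 and 2.53 FPKM in AngII + RvE1. All groups overlapped, and the log2 differences were -0.25 for AngII against Sham (limma adjusted p = 0.594) and 0.07 for AngII + RvE1 against AngII (adjusted p = 0.889). They became 0.06 and -0.24 without AngII libraries 3, 4 and 5, with adjusted p of 0.980 and 0.801. Zic1, a transcription factor that marks classical brown fat in other depots, was listed at 0 in 9 of 15 libraries and reached at most 0.0482 FPKM, so it was not tested. Its relatives Zic2, Zic4 and Zic5 were each at most 0.0638 FPKM.

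By mean level over the 15 libraries the tested genes ordered as Ucp1, Cidea, Elovl3, Dio2, Pank1, Gk, Ebf2, Prdm16 and Ppargc1a. Levels of different genes are compared here per transcript length. Cidea exceeded Elovl3 in 15 of 15 libraries, by a median of 62.0-fold, and Gk exceeded Ebf2 in 15 of 15 by a median of 2.78-fold. The neighbours between them could not be ordered: Elovl3 exceeded Dio2 in 6 of 15 libraries, Dio2 exceeded Pank1 in 9, and Pank1 exceeded Gk in 10. Ebf2 exceeded Prdm16 in 11 libraries, and Prdm16 exceeded Ppargc1a in 8.

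Prdm16 was the 1 gene of the 9 tested that changed between groups. It encodes a zinc finger regulator that switches precursor cells to the brown and beige fat program, and it is also known from other cell types, vascular cells among them. Sham libraries 1 to 5 held 7.45, 6.91, 3.93, 6.32 and 6.47 FPKM. AngII libraries held 2.95, 4.53, 2.63, 2.99 and 2.12 FPKM, and AngII + RvE1 libraries held 6.70, 6.88, 6.74, 9.20 and 9.62 FPKM. Every AngII library but AngII 2 lay below every Sham library, and AngII 2 lay above Sham 3. The AngII + RvE1 libraries all lay above the AngII libraries, with no overlap, as did 5.87% of all genes tested.

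The comparison of AngII with Sham asks what the hypertensive infusion changed in the aorta. Prdm16 fell by 0.84 on the log2 scale, from 6.21 ± 1.35 to 3.05 ± 0.900 FPKM (SD, n = 5 each; SE 0.18, limma adjusted p = 0.0263). It was the 1 of 9 tested thermogenic genes called, against 3.17% of all genes, or 0.809% for calls of a fall (298 higher and 102 lower, or 260 higher and 249 lower after the libraries were rescaled by median ratio). The other 8 genes had adjusted p between 0.246 and 0.984. The median log2 difference of the 9 genes was -0.25, with 2 above 0 and 7 below, against a median of 0.11 over all genes (8127 above 0 and 4476 below).

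This Prdm16 call was lost with the libraries that stood apart left out. Once AngII libraries 3, 4 and 5 were omitted, the log2 difference was -0.60 (adjusted p = 0.574), in a fit that called 0.163% of genes. Leaving out 1 library at a time kept the call in 10 of 15 fits, and it was lost without Sham 2, Sham 5, AngII 3, AngII 4 or AngII 5 (adjusted p up to 0.0766). With the replicate number as a block the adjusted p was 0.0542.

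What the resolvin changed in infused animals was read from AngII + RvE1 against AngII. Prdm16 rose by 1.14 on the log2 scale, to 7.83 ± 1.45 FPKM (SD, n = 5; SE 0.18, limma adjusted p = 0.0108). It was again the 1 of 9 tested genes called, against 8.52% of all genes, or 4.21% for calls of a rise (531 higher and 543 lower, or 800 higher and 466 lower after rescaling). A share of 1 in 9 is near that background. The call was kept in 15 of 15 fits that left out 1 library, with differences between 1.05 and 1.26. After omission of AngII libraries 3, 4 and 5 the difference was 0.90 (SE 0.22, adjusted p = 0.271), in a fit that called 0.00814% of genes. The other 8 genes had adjusted p between 0.142 and 0.931. The 9 genes had a median of -0.08 (4 above 0 and 5 below) against -0.11 over all genes (4521 above 0 and 8082 below).

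The comparison of AngII + RvE1 with Sham asks how far animals with both treatments were from the controls. None of the 9 tested genes was called by limma, against 0.0238% of all genes (3 of 12603). An unadjusted limma p under 0.05 was found for 1 of the 9, Gk (0.0382), against 843 of the 12603 genes. The log2 level of Prdm16 stood 0.30 higher (SE 0.18, adjusted p = 0.839), with Sham 1 and Sham 2 above part of the AngII + RvE1 libraries. The other 8 genes all had differences below 0, from -0.008 for Cidea to -1.60 for Elovl3, as did 5905 of the 12603 genes. The median over the 9 was -0.54 against 0.02 over all genes. Several of the 8 varied together across libraries, so they are not separate observations.

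**Figure D2:**
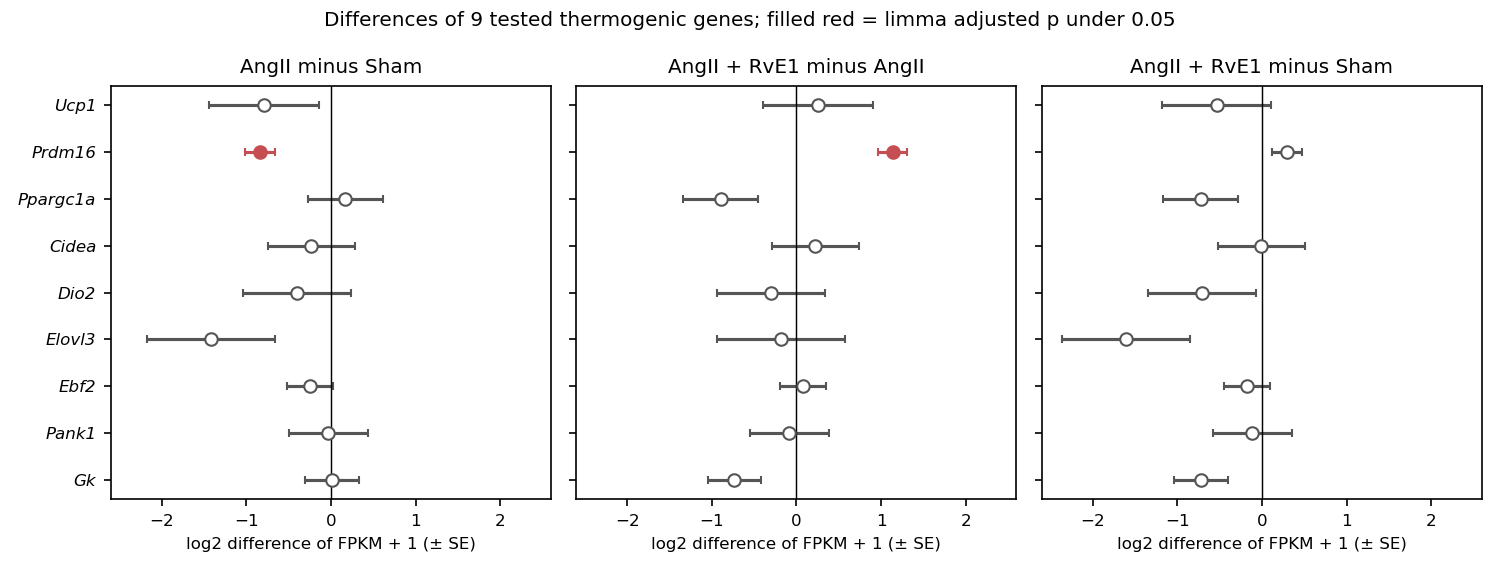
Log2 differences of FPKM + 1 (points) with standard errors (bars) for the 9 tested thermogenic genes in the 3 comparisons. Filled red points passed the limma adjusted p of 0.05, which holds for Prdm16 at -0.84 for AngII minus Sham and at 1.14 for AngII + RvE1 minus AngII, and for no other gene.

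Markers of contractile smooth muscle moved in the same direction as Prdm16. Over all 12603 genes tested, 102 fell in AngII against Sham (0.809%) and 531 rose in AngII + RvE1 against AngII (4.21%). Of the 12 smooth muscle markers tested, 2 fell in the first comparison (Kcnmb1 and Myocd) and 11 rose in the second, all but Des. Their summed level ran from 2355 to 16080 FPKM in Sham, from 1623 to 4386 FPKM in AngII and from 7015 to 12580 FPKM in AngII + RvE1, and none of them was at 0 in any library. When AngII libraries 3, 4 and 5 were omitted, 0 of the 12 were called in either comparison, with medians of -0.91 and 1.51. Across the 15 libraries Prdm16 correlated with the mean log2 level of these markers at Pearson's r = 0.932 and Spearman's rho = 0.889 (permutation p of 2e-05, or 0.00054 after Benjamini-Hochberg adjustment over 27 relations of 9 genes with 3 marker lists). Without AngII 3 and AngII 5, the 2 libraries farthest from the median, r was 0.888. It was 0.837 on values centred on the group means and 0.891 over the 12 libraries that leave out AngII 3, 4 and 5. The permutations ran over all 15 libraries regardless of group, so their p also reflects the differences between groups. No p was computed for the centred values, and relations with marker lists were added after the data were seen.

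With the smooth muscle mean as a covariate the Prdm16 difference was -0.40 for AngII against Sham (adjusted p = 0.195) and 0.52 for AngII + RvE1 against AngII (adjusted p = 0.402), so neither was called. These fits called 0.992% and 0.00793% of all genes. The adipocyte mean as a covariate left 1 of the calls, at -0.73 (adjusted p = 0.0276) for the first comparison, where 9.43% of all genes were called. For the second comparison the difference was 0.94 (adjusted p = 0.0584), and 0.341% of all genes were called. Prdm16 stood to the adipocyte mean at r = -0.676 and rho = -0.607 (adjusted permutation p = 0.0557 for r and 0.108 for rho). Without AngII + RvE1 4 and 5 that r was -0.516. With the lymphocyte mean it stood at r = -0.792 and rho = -0.479 (adjusted permutation p = 0.00662 for r and 0.202 for rho), so the rank correlation did not pass. Without AngII 3 and AngII 5 the lymphocyte r was -0.597, and over the 12 libraries without AngII 3, 4 and 5 it was -0.355. The smooth muscle mean ran from 5.46 to 6.74 in AngII and from 7.28 to 8.01 in AngII + RvE1. A fit on it therefore cannot tell cell content apart from treatment in that comparison. The part of cell content in the Prdm16 result was not tested.

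The 3 tested genes whose levels most resembled those of Prdm16 over the 15 libraries were Prdm6 (r = 0.971), a PRDM factor known from vascular smooth muscle, Lrrc17 (r = 0.956) and Hr (r = 0.953). The long noncoding RNA 5930403L14Rik lies inside the RefSeq span of Prdm16 (GRCm38.p6, chr4:154316122-154637360), at chr4:154630691-154636367. It was more abundant per length than Prdm16, at 14.4 ± 5.22 FPKM in Sham, 10.9 ± 3.90 in AngII and 23.4 ± 5.62 in AngII + RvE1 (SD, n = 5 each). Its log2 rise in AngII + RvE1 against AngII was 1.07 (SE 0.27, limma adjusted p = 0.0307), a call kept in 8 of 15 fits that left out 1 library, and at 0.61 without AngII libraries 3, 4 and 5 (adjusted p = 0.469). Whether strand was used in the counting is not given in the sources used here, so reads of Prdm16 and of this RNA may not be told apart where they overlap.

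The other 8 tested genes were compared with Ucp1 over the 15 libraries. Cidea followed Ucp1 at Pearson's r = 0.935 and Spearman's rho = 0.911, and Pank1 at r = 0.928 and rho = 0.911, each with a permutation p of 1e-05, the smallest that 100000 resamples can give (4e-05 after Benjamini-Hochberg adjustment over 8 relations). Elovl3 followed at r = 0.876 and rho = 0.811 (adjusted p = 0.000107 for r). Dio2 (r = 0.688, rho = 0.579), Gk (r = 0.678, rho = 0.671) and Ebf2 (r = 0.647, rho = 0.639) were looser, with adjusted permutation p of 0.00614, 0.00614 and 0.0108 for r.

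Ppargc1a and Prdm16 did not pass, Ppargc1a at r = 0.497 and rho = 0.493 (adjusted permutation p = 0.0662) and the latter at r = 0.119 and rho = -0.100 (adjusted p = 0.686). Leaving out Sham 1 and AngII 3, the libraries farthest from the median Ucp1 level, gave r of 0.864 for Cidea, 0.846 for Pank1, 0.779 for Elovl3, 0.650 for Gk, 0.500 for Ebf2, 0.484 for Ppargc1a, 0.479 for Dio2 and -0.213 for Prdm16. The relations of Ebf2 and Dio2 thus rested in part on those 2 libraries. Centred on the group means, r was 0.970 for Pank1, 0.959 for Cidea, 0.895 for Elovl3 and 0.829 for Gk. Over the 12 libraries without AngII 3, 4 and 5 it was 0.928 for Pank1, 0.912 for Cidea, 0.845 for Elovl3, 0.711 for Gk, 0.558 for Ebf2, 0.513 for Ppargc1a and 0.452 for Dio2, and Prdm16 stood at -0.796.

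Ucp1 stood to the adipocyte mean at r = 0.399 and rho = 0.543 over 15 libraries, which did not pass (adjusted permutation p = 0.287 for r; 0.366 without AngII + RvE1 4 and 5), and at 0.828 over the 12 without AngII 3, 4 and 5. With the smooth muscle mean it stood at r = -0.023 and rho = -0.250 over 15 libraries (adjusted p = 0.976 for r), at -0.762 without AngII 3 and AngII 5, and at -0.915 over those 12. The genes and marker means of a library share its unknown depth and its cell content, whose part in these relations was not tested.

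**Figure D3:**
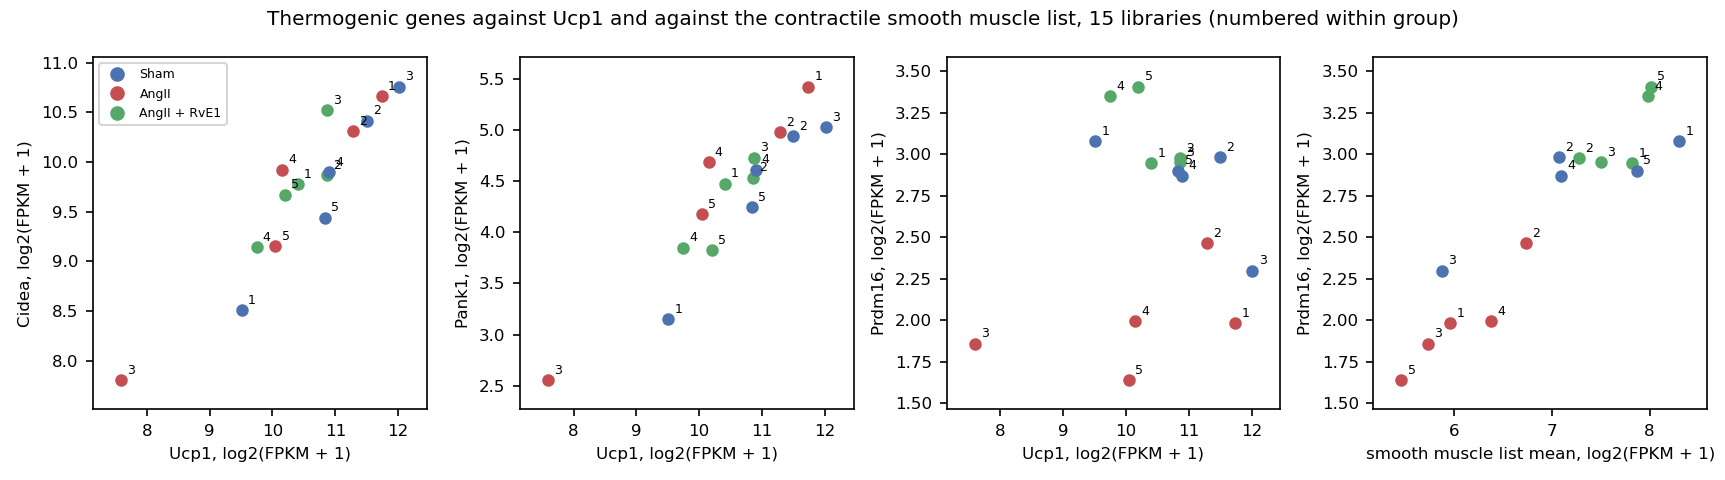
Cidea, Pank1 and Prdm16 against Ucp1, and Prdm16 against the mean of 12 contractile smooth muscle markers, all on the log2(FPKM + 1) scale, with 1 point per library coloured by group and numbered. Cidea and Pank1 rise with Ucp1 (r = 0.935 and 0.928), Prdm16 does not (r = 0.119) and rises with the smooth muscle mean (r = 0.932).

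For each of the genes, the 3 tested genes with the most similar levels were found. Ucp1 was closest to Suclg1 (r = 0.966), Mpc2 (r = 0.964) and Ddo (r = 0.963). Suclg1 encodes a subunit of a citric acid cycle enzyme and Mpc2 a subunit of the mitochondrial pyruvate carrier. Cidea was closest to Acaa2 (r = 0.996), a thiolase of fatty acid oxidation, Cyc1 (r = 0.989) and Suclg1 (r = 0.989). Pank1 was closest to Acadm (r = 0.989), Dlst (r = 0.988) and Acadvl (r = 0.988), of which Acadm and Acadvl encode acyl-CoA dehydrogenases.

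Elovl3 was closest to the hexokinase gene Hk2 (r = 0.968), the phosphofructokinase gene Pfkl (r = 0.952) and its paralog Elovl6 (r = 0.951). Gk headed the list of Ppargc1a (r = 0.881), before Zfp366 (r = 0.868) and Ube3b (r = 0.858). Gk itself was closest to Atg12 (r = 0.910), Adcy3 (r = 0.899) and Pdp2 (r = 0.894). Dio2 stood nearest to the rhythmic gene Noct (r = 0.875), Dusp10 (r = 0.867) and Ackr3 (r = 0.855), and Ebf2 to Slc18b1 (r = 0.898), Dip2a (r = 0.891) and Ntrk2 (r = 0.888). These are the highest correlations for each gene over all genes tested and 15 libraries and describe levels only.

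The genes were also set relative to Ucp1 within each library. Cidea ran from 38.0% to 50.0% of the Ucp1 level in Sham, from 47.5% to 116% in AngII and from 50.2% to 78.8% in AngII + RvE1. Pank1 ran from 0.765% to 1.23% in Sham, from 1.23% to 2.55% in AngII and from 1.12% to 1.57% in AngII + RvE1.

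A fit with the log2 level of Ucp1 as a covariate, chosen after the data were seen, was read for 8 genes. Its slope on Ucp1 was fitted for each gene, so it does not test the percentages above. In AngII against Sham it called 2 of them, Prdm16 (-0.85, limma adjusted p = 0.0228) and Pank1 (0.53, adjusted p = 0.0416), against 5.34% of all genes. Pank1 was called in 4 of 15 fits that left out 1 library and stood at 0.37 without AngII libraries 3, 4 and 5 (adjusted p = 0.462). In AngII + RvE1 against AngII it called Prdm16 (1.14, adjusted p = 0.00604) and Gk, against 19.1% of all genes, so that 2 of 8 is near that background. Gk fell by 0.83 on the log2 scale in this fit (SE 0.19, adjusted p = 0.0127), a call kept in 15 of 15 fits that left out 1 library. Once AngII libraries 3, 4 and 5 were omitted, it was -1.14 (SE 0.28, adjusted p = 0.229). Cidea, at 0.40 for AngII + RvE1 against Sham (SE 0.18, adjusted p = 0.612), was not called, and 0 of the 8 were in that comparison, against 0.0476% of all genes.

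**Figure D4:**
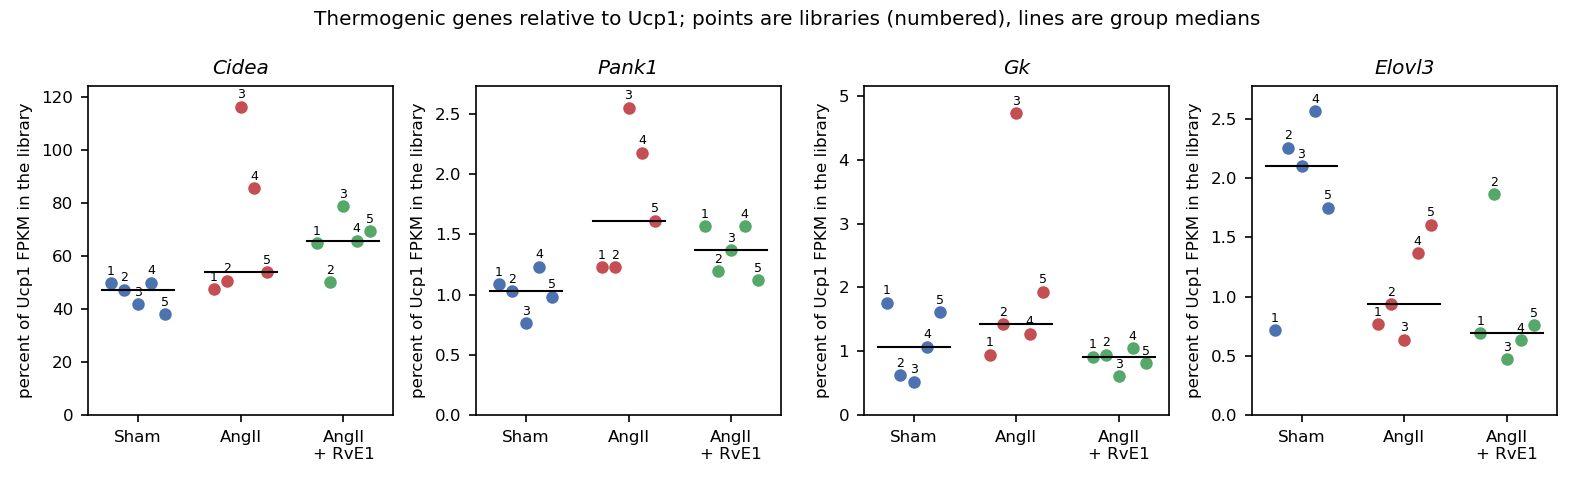
Cidea, Pank1, Gk and Elovl3 as a percentage of the Ucp1 level in the same library, on linear axes from 0. Points are libraries numbered within their group and lines are group medians; AngII 3, the library with the least Ucp1, is the highest point for Cidea (116%), Pank1 and Gk.

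The wider brown fat program was read from lists of its effectors, regulators and inputs. Counts of calls on these lists stand beside those over all 12603 genes. There, 298 rose and 102 fell in AngII against Sham (3.17% called), and 531 rose and 543 fell in AngII + RvE1 against AngII (8.52%). Among 20 effector genes of mitochondria and fat oxidation, 0 were called in AngII against Sham by limma at adjusted p under 0.05, with a median of -0.23. An unadjusted p under 0.05 was found for 4 of the 20, against 3307 of the 12603 genes tested. The smallest p was that of Lpl, the lipase that frees fatty acids from lipoproteins, at 0.99 (adjusted p = 0.0582). Cox8b and Cox7a1, subunits of cytochrome oxidase abundant in brown fat, measured 2164 ± 1567 and 800.1 ± 531 FPKM in Sham and 1682 ± 1074 and 561 ± 396 FPKM in AngII (SD, n = 5 each). The summed level of cardiac muscle markers ran from 10.6 (AngII + RvE1 2) to 2168 FPKM (AngII 2). That of skeletal muscle markers ran from 8.54 (AngII 3) to 1550 FPKM (AngII 4). The part of muscle in the levels of these lists was not tested. Lpl was the 1 gene that fell in AngII + RvE1 against AngII (-0.96, adjusted p = 0.0435), in 4 of 15 fits that left out 1 library, and stood at -1.29 without AngII libraries 3, 4 and 5 (adjusted p = 0.303). Omitting AngII libraries 3, 4 and 5 left only AngII 1 and AngII 2 in that group. For AngII against Sham that fit called 0.163% of genes. In it Slc27a2, a very long chain acyl-CoA synthetase, was 2.09 higher in AngII than in Sham (limma adjusted p = 0.0110). This was the 1 call among all the lists, and no call made on these lists with all 15 libraries was kept. With all 15 libraries the Slc27a2 difference was 1.06 (SE 0.44, limma adjusted p = 0.145), which was not called.

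Of 27 regulators tested, 0 were called in AngII against Sham (median 0.21) and 1 in AngII + RvE1 against AngII, where Foxc2 rose by 1.18 (limma adjusted p = 0.0340). The smallest p in the first comparison was that of Hdac3, at 0.34 (adjusted p = 0.0599). The PPAR gamma gene Pparg, needed by all fat cells, stood at 105 ± 38.7, 115 ± 44.9 and 81.9 ± 23.0 FPKM in Sham, AngII and AngII + RvE1 (SD, n = 5 each). Of 8 thyroid hormone genes tested, 0 were called in the first comparison, where the receptor gene Thra had the smallest p (-0.58, adjusted p = 0.0961), and Thra rose in the second by 0.78 (adjusted p = 0.0323). Dio1 and Dio3, the deiodinase relatives of Dio2, were at most 0.129 and 0.388 FPKM. The Foxc2 and Thra calls were each kept in 9 of 15 fits that left out 1 library, and both were lost without AngII libraries 3, 4 and 5, where the differences were 1.09 and 0.65 (adjusted p = 0.390 and 0.349).

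Among genes of adrenergic and cyclic AMP input, the phosphodiesterase gene Pde3b fell in AngII + RvE1 against AngII by 0.91 (limma adjusted p = 0.0451), and the adenylyl cyclase gene Adcy5 rose by 1.26 (adjusted p = 0.0450). Both calls were kept in 4 of 15 fits that left out 1 library, and without AngII libraries 3, 4 and 5 the differences were -1.15 and 0.98 (adjusted p = 0.329 and 0.468). Adrb3, the beta receptor most typical of fat, stood at 84.1 ± 36.6, 87.7 ± 23.8 and 53.4 ± 33.9 FPKM in Sham, AngII and AngII + RvE1 (SD, n = 5 each), and was not called. Macrophage markers also differed between these groups. In AngII against Sham 5 of 9 rose (298 of 12603 over all genes), and in AngII + RvE1 against AngII 6 of 9 fell (543 of 12603). The part of these markers in the results on these lists was not tested. Without AngII libraries 3, 4 and 5, 0 of the 9 were called in either comparison, and their median log2 differences went from 1.39 to 0.57 and from -1.19 to -0.42. Their summed level ran from 129 to 175 FPKM in Sham, 166 to 1213 FPKM in AngII and 158 to 208 FPKM in AngII + RvE1.

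Of 9 beige fat markers tested, 1 rose in AngII against Sham, Slc27a1, a fatty acid transporter, from 42.3 ± 8.59 to 113 ± 32.9 FPKM (SD, n = 5 each; log2 difference 1.37, limma adjusted p = 0.00902). In AngII + RvE1 against AngII 4 fell, namely Slc27a1 (-1.43, adjusted p = 0.0135), Ear2 (-0.91, adjusted p = 0.0175), Sp100 (-1.38, adjusted p = 0.0400) and Tbx1 (-0.68, adjusted p = 0.0488). Over all genes tested, 543 of 12603 fell in this comparison. Slc27a1 was called in 15 of 15 fits that left out 1 library in both comparisons, and without AngII libraries 3, 4 and 5 stood at 1.05 (adjusted p = 0.302) and -1.10 (adjusted p = 0.284). Ear2 was called in 14 such fits, Sp100 in 6 and Tbx1 in 4, and without the 3 libraries they stood at -0.73, -0.35 and -0.44 (adjusted p = 0.335, 0.571 and 0.525). Sp100 is an interferon-induced gene of many cell types. Tmem26, Tnfrsf9, Cited1 and Shox2 were under the filter on low values.

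In the coenzyme A and glycerol route around Pank1 and Gk, 1 of 15 genes tested rose in AngII against Sham, Gpat3, a glycerol-3-phosphate acyltransferase (1.30, limma adjusted p = 0.0149). It fell in AngII + RvE1 against AngII by 1.51 (adjusted p = 0.0117), as did Pank3, the paralog of Pank1, by 0.88 (adjusted p = 0.0151). These 3 calls were kept in 15 of 15 fits that left out 1 library. Once AngII libraries 3, 4 and 5 were omitted, they stood at 1.02, -1.23 and -0.81, with adjusted p of 0.433, 0.284 and 0.316. Pank3 itself measured 12.5 ± 1.65, 15.8 ± 1.14 and 8.46 ± 3.18 FPKM in Sham, AngII and AngII + RvE1 (SD, n = 5 each).

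Of the other paralogs, Ucp2, a carrier related to Ucp1 that is common in immune cells, rose in AngII against Sham by 1.84 (limma adjusted p = 0.0320) and fell in AngII + RvE1 against AngII by 1.59 (adjusted p = 0.0326). These calls were kept in 10 and 8 of 15 fits that left out 1 library, and both differences shrank without AngII libraries 3, 4 and 5, to 0.70 and -0.45 (adjusted p = 0.481 and 0.479). Cidec, the Cidea paralog typical of white fat, fell in AngII + RvE1 against AngII by 0.93 (adjusted p = 0.0268), from 562 ± 101 to 299.9 ± 82.5 FPKM (SD, n = 5 each), while Cidea was not called. Elovl5 fell in AngII against Sham by 0.63 (adjusted p = 0.0496), and Ebf4 rose in AngII + RvE1 against AngII by 0.62 (adjusted p = 0.0475). Cidec was called in 10 of 15 fits that left out 1 library, Elovl5 in 5 and Ebf4 in 2, and without AngII libraries 3, 4 and 5 they stood at -1.08, -0.47 and 0.63, with adjusted p of 0.304, 0.755 and 0.376.

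Heat genes that work without uncoupling protein 1 numbered 13 tested. Besides Ucp2, 1 was called, the creatine transporter gene Slc6a8, which rose in AngII + RvE1 against AngII by 0.77 (limma adjusted p = 0.0486) in 5 of 15 fits that left out 1 library. Of 7 secreted factors tested, Igf1 rose in AngII against Sham by 1.02 (adjusted p = 0.0375), in 7 of 15 such fits, and 0 in AngII + RvE1 against AngII, where Epdr1 had the smallest p (0.73, adjusted p = 0.0968). After omission of AngII libraries 3, 4 and 5 these calls of Slc6a8 and Igf1 were lost, at 0.45 and 0.60 (adjusted p = 0.508 and 0.685). No gene of any of these lists was called in AngII + RvE1 against Sham by limma. Of 15 adipocyte markers tested, 0 were called in AngII against Sham and 2 fell in AngII + RvE1 against AngII. These were Retn and Lpl, and Lpl is also on the effector list. The medians of the 15 were 0.28 and -0.57 in the 2 comparisons. Their summed level ran from 10460 to 24470 FPKM in Sham, 14720 to 25960 FPKM in AngII and 10100 to 18070 FPKM in AngII + RvE1. Without the 3 libraries 0 of the 15 were called, with medians of 0.47 and -0.71.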

How the data were processed

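RNA of 15 mouse aorta libraries was sequenced from total RNA, with a SMARTER kit per the labels' protocols. The authors deposited 1 table of 34714 gene symbols with 1 normalised value per library, treated here as FPKM because values carry decimals and library sums differ (385846 to 514281); the file names no unit, and scaling to gene length was assumed. Low values were not whole multiples of 1 read's worth (the commonest ratio between libraries held at most 0.643% of low genes, within 0.1%). The submitters' processing notes name mm10; for aligner, quantifier and annotation the entry is "not given in the sources used here".

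A gene was tested where 5 or more libraries held 1 FPKM or more (12603 genes). limma-trend (limma 3.58.1, R 4.3.3) was fitted on log2(FPKM + 1) with 1 mean per group over all 15 libraries, with two-sided tests and Benjamini-Hochberg adjustment over all genes per comparison. Correlations used 100000 permutations (two-sided, Python 3.11.15). The procedure was tested on simulated data in which genes varied independently and no libraries stood apart. That test therefore does not cover libraries such as AngII 3, 4 and 5 or genes that vary together. All 10 members are named, with up to 4 called genes per list and comparison by adjusted p (or the 1 with the smallest p), defining list genes, paralogs and the 3 genes most correlated with each member, leaving out unnamed symbols; 5930403L14Rik and some further list genes were chosen after their values were seen. Sequences come from RefSeq's GRCm38.p6 promoters. The members and lists were chosen with earlier results of these data known. Alternatives were an added value of 0.1, no filter, a fit restricted to the 2 groups of a comparison, the replicate block, rescaling by median ratio, adipocyte and smooth muscle covariates, and omitted libraries. The Ucp1 covariate, and the family of correlations with marker lists, were added after seeing the data. Some genes of the lists are not reported here.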

Additional observations from a re-analysis of the deposited data

Results flagged for a closer look

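Of 27 groups of 5 libraries (9 tested genes in 3 groups), 3 held a library farther from the rest, on the log2 scale, than Dixon's critical value of 0.710 allows. Chance gives about 1 in 20 such groups. Prdm16 stood at 3.93 FPKM in Sham 3, against 6.32 to 7.45 FPKM in the other Sham libraries (gap over range 0.734). Sham 3 is also the Sham library with the lowest summed smooth muscle markers, at 2355 FPKM, and the highest Ucp1. Elovl3 stood at 1.22 FPKM in AngII 3, against 15.5 to 26.2 FPKM in the other AngII libraries (gap over range 0.801), and AngII 3 was also lowest of all libraries for Ucp1, Cidea, Dio2 and Pank1. Elovl3 stood at 34.7 FPKM in AngII + RvE1 2, against 5.40 to 9.40 FPKM in the other AngII + RvE1 libraries (gap over range 0.718), a library that was also highest of its group for Ppargc1a, Dio2, Ebf2 and Gk.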

How the results depend on the processing

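Of 264 results for single thermogenic genes under the alternatives other than leaving out 1 library, 218 kept direction and side of the threshold, 34 turned, 10 lost the threshold and 2 gained it (Elovl3 with the adipocyte and Gk with the Ucp1 covariate). Of the 34, Pank1 with the Ucp1 covariate also gained the threshold. Every turned result was uncalled in the fit of all 15 libraries. Prdm16 against Sham also lost its call with no filter (adjusted p = 0.0514) and with only the 2 groups compared (0.0975). The replicate numbers pair no animals in the labels, and deviations of same-numbered libraries correlated between -0.414 and 0.521. With the replicate block, thermogenic genes called numbered 0, 1 and 0 and all genes 109, 433 and 1 in the 3 comparisons.

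Thermogenic genes called in AngII against Sham numbered 0 with no filter, only the 2 groups, the smooth muscle covariate, without AngII libraries 3, 4 and 5, and with the Ucp1 covariate without those libraries, and 2 with the adipocyte or the Ucp1 covariate. In AngII + RvE1 against AngII the count was 0 with either marker covariate and without AngII libraries 3, 4 and 5 (with or without the Ucp1 covariate), and 2 with the Ucp1 covariate. All genes called in AngII against Sham, 400 in the reported fit, numbered 151 with no filter, 37 with only the 2 groups, 1188, 125 and 673 with the adipocyte, smooth muscle and Ucp1 covariates, 20 without AngII libraries 3, 4 and 5 and 79 when both were combined. In AngII + RvE1 against AngII, 1074 became 405 with no filter, 43, 1 and 2404 with those covariates, 1 without the libraries and 9 when combined. In AngII + RvE1 against Sham, 3 became 1 with no filter, only the 2 groups, the adipocyte and the smooth muscle covariate, 6 with the Ucp1 covariate and 5 without the libraries.

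Leaving out 1 library at a time gave 0 to 1, 1 to 1 and 0 to 0 thermogenic genes and 77 to 1697, 95 to 2007 and 1 to 8 of all genes. The lowest and highest log2 differences for AngII against Sham were -1.18 and -0.15 for Ucp1, -0.97 and -0.75 for Prdm16, -0.15 and 0.45 for Ppargc1a, -0.56 and 0.21 for Cidea, -0.79 and 0.16 for Dio2, -2.05 and -0.77 for Elovl3, -0.37 and -0.11 for Ebf2, -0.34 and 0.42 for Pank1 and -0.19 and 0.28 for Gk. For AngII + RvE1 against AngII they were -0.39 and 0.65 for Ucp1, -0.22 and 0.50 for Cidea, -0.86 and 0.0902 for Dio2, -0.83 and 0.0693 for Elovl3, -0.0674 and 0.30 for Ebf2 and -0.53 and 0.18 for Pank1. For AngII + RvE1 against Sham they were -0.33 and 0.23 for Cidea, -0.30 and 0.0496 for Ebf2 and -0.42 and 0.046 for Pank1.

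The turned values for AngII against Sham were -0.10 (rescaled), -0.16 (adipocyte covariate) and -0.0256 (smooth muscle covariate) for Gk and -0.12 (adipocyte) for Ppargc1a. With the Ucp1 covariate they were 0.36 for Cidea, 0.15 for Dio2 and 0.53 for Pank1. Without AngII libraries 3, 4 and 5 they were 0.56 for Ucp1, 0.68 for Cidea, 1.09 for Dio2, 0.059 for Ebf2 and 0.81 for Pank1, and with both 0.17, 1.03 and 0.37 for Cidea, Dio2 and Pank1. For AngII + RvE1 against AngII they were 0.0104 (rescaled), 0.79 (adipocyte) and 0.50 (smooth muscle) for Pank1, 1.28 (adipocyte), 1.36 (smooth muscle) and 0.52 (both the Ucp1 covariate and the omission) for Elovl3, and, without the libraries, -1.10, -0.69 and -0.24 for Ucp1, Cidea and Ebf2. For AngII + RvE1 against Sham they were 0.41, 0.20, 0.40 and 0.48 for Cidea and 0.28, 0.055, 0.27 and 0.31 for Pank1 (adipocyte, smooth muscle, Ucp1, and Ucp1 with the omission), and 0.0722 (adipocyte) and 0.0014 (both) for Ebf2. The cause of these shifts was not tested. Depth is unknown, so low genes such as Ppargc1a and Zic1 carry an unknown counting error.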
